A study of Homo sapiens with 4 samples.

Results

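The SLC25 carriers are the genes that encode the transport proteins of the mitochondrial inner membrane, and they were followed in 2 metastatic derivatives of a human breast cancer cell line with and without depletion of the RNA-binding protein hnRNPM. Members were all genes of the deposited expression table whose symbol is SLC25A followed by a number. There were 43 such genes among 20329 genes kept, and 38 of them had a mean level of at least 1 FPKM (fragments scaled to the length of the transcript and the number of mapped fragments) and were tested, together with 13928 genes in all. The lines were MDA-MB-231 BM1 (1833), a bone metastasis derivative, and MDA-MB-231 LM2 (4175), a lung metastasis derivative, both of a triple-negative breast cancer line. The 4 groups were the control and the knockdown of each line, with 1 library each. All cells carried a lentiviral vector with stable expression of an shRNA, which was non-specific in the controls and directed at hnRNPM in the knockdowns. Cells were grown in DMEM with serum, and polyadenylated RNA was sequenced from stranded paired-end libraries. The labels name 1 shRNA per group and no separate cultures of a group, so an effect of hnRNPM depletion cannot be told apart from an effect of that shRNA or of the selected culture. The 2 lines stood in for replicates. The p-values measure only the spread between these libraries, pooled in part over all genes. That spread may be technical or a difference between the lines in their response.

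The inner mitochondrial membrane is closed to nearly all metabolites, and SLC25 proteins are the exchangers that let nucleotides, phosphate, carboxylates, amino acids and cofactors cross it. They are encoded in the nucleus, translated in the cytosol and inserted into the inner membrane through the TOM complex and the TIM22 complex. Most are built from tandem repeats that each carry a conserved signature motif, which forms part of the gate of the transporter. In growing cancer cells they link the citric acid cycle, oxidative phosphorylation, fatty acid synthesis and folate metabolism to the cytosol.

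The label of the knockdown was checked first. HNRNPM stood at 171 FPKM in the BM1 control and 28.4 in the BM1 knockdown, and at 132 and 20.3 in the LM2 control and knockdown. The knockdowns thus held 16.6% and 15.4% of the control level, and the average difference over the lines was −2.59 ± 0.25 on the log2(FPKM + 1) scale (SE, limma, Benjamini-Hochberg adjusted p = 0.00318). HNRNPM overlaps ELAVL1 on the other strand. The mesenchymal breast cancer markers VIM (1160 to 2354 FPKM), CD44 (155 to 223) and EGFR (31.4 to 80.6) were present in all 4 libraries, ERBB2 lay between 13.5 and 21.9, and ESR1 and PGR were not analysed here. Of 9 markers of leukocytes, fibroblasts and endothelium, 3 had a row. Their summed level was 1.70 and 1.31 FPKM in the BM1 control and knockdown and 0.671 and 2.05 in the LM2 control and knockdown. LUM, a fibroblast matrix gene, was at 0.0213 and 0.465 FPKM in BM1 and 0.0239 and 1.61 in LM2, higher in the knockdown of each line. KDR, an endothelial receptor, was at 1.502 and 0.594 in BM1 and 0.640 and 0.414 in LM2, lower in the knockdown of each line, and PDGFRA was at no more than 0.250. The part of other cell types in the results below was not tested. The depth inferred from the step structure of the low values was about 31300000 and 22800000 fragments in the BM1 control and knockdown and 41500000 and 27300000 in the LM2 control and knockdown. Genes of the mitochondrial genome took 9.31% and 8.80% of the FPKM sum in the BM1 and LM2 controls and 12.8% and 11.8% in the knockdowns. Lower depth and a higher mitochondrial share thus went with both knockdown libraries, and the part of depth in the results below was not tested.

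The family was dominated by a few carriers. SLC25A5, SLC25A3, SLC25A6, SLC25A39 and SLC25A1 had the highest mean levels and together made up 75.2% of the summed FPKM of the 43 genes in control and 70.5% in knockdown cells of BM1, and 76.6% and 70.3% in those of LM2. The summed level of the family was 1632 and 1365 FPKM in the BM1 control and knockdown and 1586 and 1234 in the LM2 control and knockdown. As a share of all FPKM this was 0.359% and 0.313% in BM1 and 0.365% and 0.283% in LM2. Both knockdowns thus lay below both controls. The sum is led by the most abundant carriers and does not describe a typical one. SLC25A5 alone stood at 695 FPKM in the BM1 control against 380 in its knockdown, and at 594 against 462 for LM2. SLC25A3 was higher in the BM1 knockdown (440 against 319 FPKM) and lower in the LM2 knockdown (249 against 415). Of the 38 carriers tested, 14 were lower in the knockdown of both lines, 13 were higher and 11 changed sign. A level per total RNA does not tell fewer expressing cells from less RNA per cell.

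**Figure D1:**
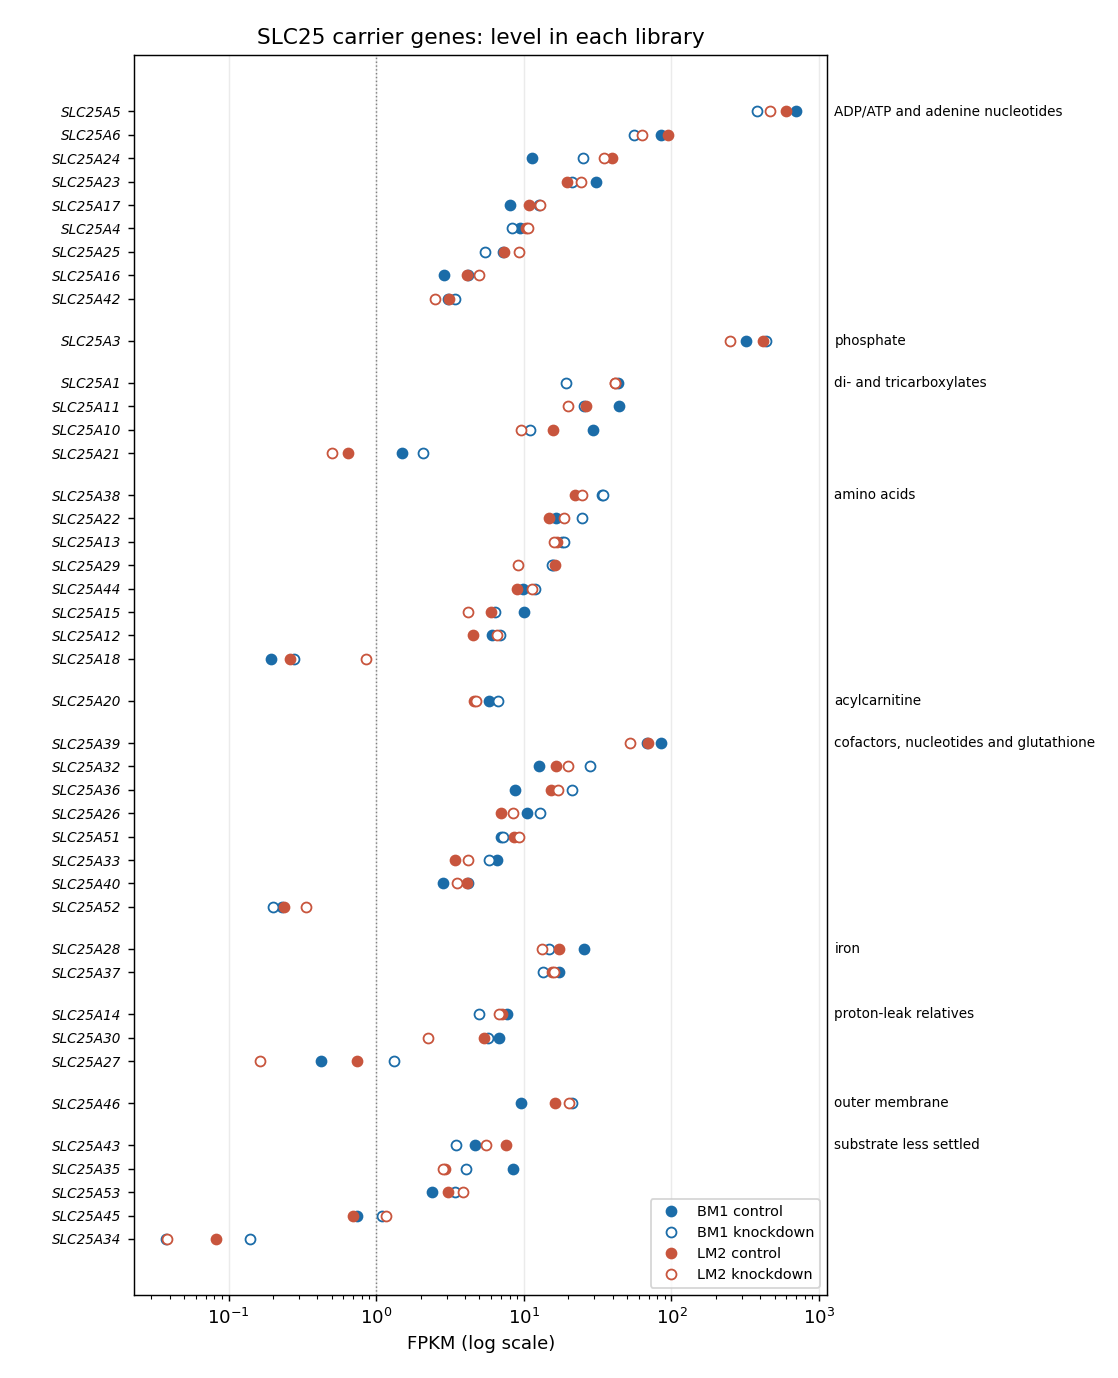
FPKM of 42 of the 43 SLC25 genes in each library on a log axis, grouped by what the proteins carry. Filled circles are controls, open circles knockdowns, blue BM1 and red LM2, and the dotted line marks 1 FPKM. SLC25A5 and SLC25A3 stand at 249 FPKM or above in every library, and 5 genes have a mean below the dotted line.

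The signature of an SLC25 repeat has 6 residues, a proline, any residue, an aspartate or glutamate, any 2 residues, and a lysine or arginine. In the GENCODE 29 coding sequences, which ran from 274 to 678 codons (median 314), 39 of the 43 genes held at least 1 match to it and 23 held 3. SLC25A46, SLC25A51, SLC25A52 and SLC25A53 held no match. The stretches of 48 bases around the first match show how the same motif was written in carriers whose level was lower in the BM1 knockdown than in the BM1 control (the first 5 lines) and in carriers whose level was higher there (the last 4). They were chosen after the values were seen. Capitals mark the codons of the proline, the acidic residue and the basic residue.
SLC25A5: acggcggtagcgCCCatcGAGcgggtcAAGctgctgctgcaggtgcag
SLC25A6: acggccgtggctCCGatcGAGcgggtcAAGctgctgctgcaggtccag
SLC25A10: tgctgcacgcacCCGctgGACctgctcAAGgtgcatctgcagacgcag
SLC25A1: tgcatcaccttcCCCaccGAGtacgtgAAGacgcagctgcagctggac
SLC25A11: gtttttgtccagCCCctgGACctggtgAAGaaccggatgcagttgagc
SLC25A36: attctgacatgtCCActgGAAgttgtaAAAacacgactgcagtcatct
SLC25A24: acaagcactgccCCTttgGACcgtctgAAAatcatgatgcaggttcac
SLC25A17: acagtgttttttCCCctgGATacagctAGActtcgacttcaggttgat
SLC25A40: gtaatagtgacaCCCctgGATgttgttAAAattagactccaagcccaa

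In GRCh38 the stretch of SLC25A1 lies in exon 2 of the transcript at chr22:19178167-19178214 (minus strand), that of SLC25A11 in exon 2 at chr17:4939152-4939199 (minus strand) and that of SLC25A36 in exon 2 at chr3:140956549-140956596 (plus strand). The other 6 cross an exon junction, so their genomic span includes an intron. These spans are chrX:119468585-119469666 for SLC25A5 (plus strand), chrX:1389722-1391940 for SLC25A6 (minus), chr17:81712490-81714970 for SLC25A10 (plus), chr1:108155130-108157503 for SLC25A24 (minus), chr22:40794576-40799065 for SLC25A17 (minus) and chr7:87856311-87858637 for SLC25A40 (minus). The GC content of the 48 bases was 68.75% in SLC25A5 and in SLC25A6, 64.6% in SLC25A10, 60.4% in SLC25A1 and 56.25% in SLC25A11. It was 41.7% in SLC25A36 and in SLC25A40, 43.75% in SLC25A17 and 50.0% in SLC25A24. The split is less clean over the 33 tested carriers whose stretch was taken. SLC25A32 and SLC25A37, on chromosome 8, also hold a match, but their stretches were left out. The 18 that were lower in the BM1 knockdown had a median of 57.3% (39.6% to 83.3%), and the 15 that were higher had a median of 45.8% (39.6% to 60.4%). Among the exceptions, SLC25A20 and SLC25A22 were higher at 60.4%, and SLC25A30 and SLC25A43 were lower at 41.7%. The first match was at codon 5 in SLC25A23, the gene at 83.3%, at codon 126 in SLC25A43 and at codon 242 in SLC25A44. Whether each first match lies in a carrier repeat was not tested. Over the whole family the share of G or C at the third codon position ran from 31.1% in SLC25A40 to 90.3% in SLC25A6.

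The comparison of knockdown with control asked which carriers differed after hnRNPM depletion in both lines. No carrier passed the test over both lines (0 of 38 at an adjusted p of 0.05 in limma), against 5.47% of all genes tested (2.71% higher and 2.76% lower in the knockdowns). At an unadjusted p of 0.05 there were 5 carriers, SLC25A5, SLC25A6, SLC25A10, SLC25A32 and SLC25A46, which is 13.2% of 38 against 24.9% of all genes. Both knockdown libraries lay below both controls in 10 carriers (26.3%, against 22.6% of all genes) and above both in 9 (23.7%, against 21.8%), shares near those of all genes. The median difference of the 38 was −0.04 averaged over the lines, against −0.01 for all genes tested. In both lines 14 carriers were lower in the knockdown, 13 were higher, and 11 had opposite signs, which is 28.9% against 30.9% of all genes.

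Within a line there was 1 library per arm, so differences carry no test and were described by counting those of 2-fold or more (a difference of 1 in log2(FPKM + 1)). In BM1, 4 carriers were at least 2-fold higher in the knockdown (10.5%, against 10.1% of all genes) and 2 were at least 2-fold lower (5.26%, against 6.20%). In LM2 no carrier passed 2-fold in either direction, where 3.83% of all genes were higher and 4.24% lower. The SD of the differences across the 38 carriers was 0.63 in BM1 and 0.36 in LM2 (all genes 0.75 and 0.59). The larger difference was in BM1 for 26 of 38 carriers and for 8567 of all 13928 genes.

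**Figure D2:**
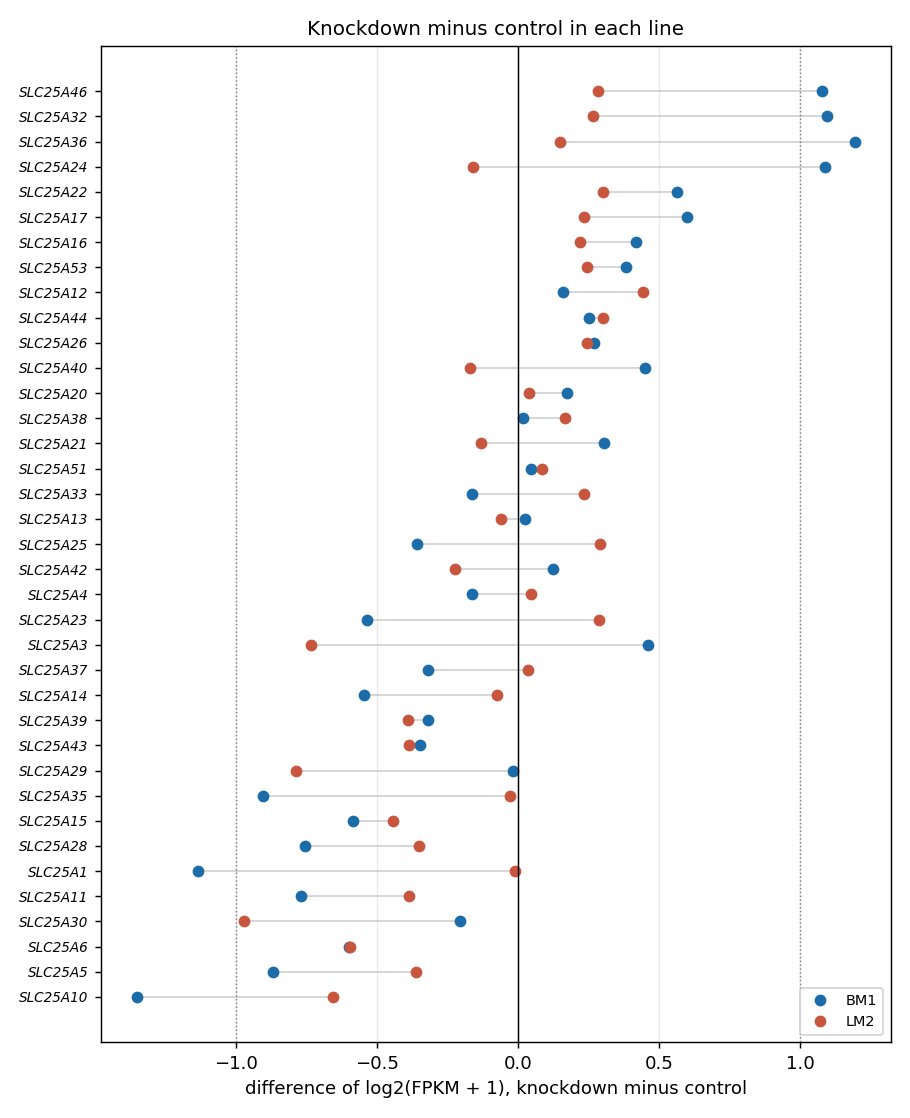
Difference of log2(FPKM + 1), knockdown minus control, for 37 of the 38 carriers tested, with BM1 in blue and LM2 in red and 1 library per arm. Genes are ordered by the average over the lines, and dotted lines mark 2-fold. The BM1 values run from −1.35 to 1.19 and the LM2 values from −0.97 to 0.44.

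Among the nucleotide carriers, the ADP/ATP exchangers that supply the cytosol with ATP were the most abundant. SLC25A5 (ANT2, the isoform of dividing cells, chrX:118602363-118605282 in the table's coordinates) stood at 695 FPKM in control and 380 in knockdown cells of BM1, and at 594 and 462 in those of LM2. Both controls were above both knockdowns. The average difference was −0.62 ± 0.26 (SE, limma, adjusted p = 0.192). SLC25A6 (ANT3, chrX:1505045-1511617, in the region shared by the X and Y chromosomes) followed at 84.4 and 55.4 FPKM in the BM1 control and knockdown and at 95.4 and 62.8 in LM2. Its knockdown libraries held 65.6% and 65.8% of the control level. The average difference was −0.60 ± 0.25 (adjusted p = 0.183). SLC25A4 (ANT1, the isoform of heart and muscle) was low, between 8.31 and 10.7 FPKM, and its groups overlapped.

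The sum of the 3 ADP/ATP carriers was 789 and 444 FPKM in the BM1 control and knockdown and 700 and 535 in the LM2 control and knockdown. SLC25A5 gave 88.1% and 85.7% of it in BM1 and 84.9% and 86.3% in LM2. GENCODE 29 names 9 pseudogenes of SLC25A5 and 6 of SLC25A6, none with a row in the table, so fragments from near-identical copies could be split or misassigned. The SLC25A5 gene also overlaps SLC25A5-AS1 on the other strand.

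The calcium-regulated ATP-Mg/phosphate carriers, which set the size of the adenine nucleotide pool in the matrix, did not move together. SLC25A24 (chr1:108676658-108743471) stood at 11.3 FPKM in control and 25.2 in knockdown cells of BM1, and at 39.3 and 35.1 in those of LM2. The BM1 control was the low library, and the BM1 knockdown lay below both LM2 libraries. The knockdown held 2.23 times the control level in BM1 and 0.893 times in LM2, and the average difference was 0.47 ± 0.33 (adjusted p = 0.416). SLC25A23 went the other way, at 31.0 and 21.1 FPKM in BM1 and 19.7 and 24.3 in LM2, so that the ratio of SLC25A24 to SLC25A23 was 0.366 and 1.20 in the BM1 control and knockdown and 1.99 and 1.45 in LM2. SLC25A25 ranged from 5.44 to 9.25 FPKM with overlapping groups. SLC25A17, the peroxisomal member, which carries coenzyme A and related nucleotides, was at 8.0 and 12.6 FPKM in BM1 and 10.8 and 12.9 in LM2, with both knockdowns above both controls. SLC25A16, linked to coenzyme A uptake, also had no overlap, at 2.90 and 4.21 in BM1 and 4.13 and 4.97 in LM2, while the coenzyme A carrier SLC25A42 stayed between 2.51 and 3.44.

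SLC25A3, the phosphate carrier that feeds ATP synthase, was the second most abundant member and had opposite signs in the lines. It stood at 319 FPKM in control and 440 in knockdown cells of BM1, and at 415 and 249 in those of LM2 (chr12:98987369-99000157). The knockdown was the higher library in BM1 and the lower in LM2, and the average difference was −0.14 ± 0.32 (adjusted p = 0.828). The ratio of SLC25A5 to SLC25A3 was 2.18 and 0.865 in the BM1 control and knockdown and 1.43 and 1.85 in LM2. SLC25A3 overlaps SNORA53 and a further short gene on its own strand, and shared fragments cannot be separated here.

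The di- and tricarboxylate carriers move citrate, malate, succinate and 2-oxoglutarate between matrix and cytosol. Of 4 tested, 3 were lower in the knockdown of both lines, without a call, where 36.2% of all genes were. These 3 (SLC25A1, SLC25A10 and SLC25A11) had transcripts of 58.3% to 65.6% GC. Of all genes with over 55% GC, 67.4% were lower in the BM1 knockdown and 62.6% in the LM2 knockdown. SLC25A10, the dicarboxylate carrier (chr17:79679266-79688046), stood at 29.5 FPKM in control and 10.98 in knockdown cells of BM1, and at 15.7 and 9.63 in those of LM2. Both knockdowns were below both controls, at 37.2% and 61.1% of the control level. Its average difference of −1.003 ± 0.28 was the lowest of the 38 carriers and did not pass the test (adjusted p = 0.0714). It was −0.57 without the BM1 control library, while the paired difference in LM2 was −0.66. In this and all later fits without a library the term for the other factor (line or treatment) was dropped, so the libraries left were not paired. SLC25A1, the citrate carrier that supplies acetyl units for fatty acid synthesis (chr22:19163088-19166343), stood at 43.3 FPKM in control and 19.2 in knockdown cells of BM1, and at 41.5 and 41.2 in those of LM2. A single library, the BM1 knockdown, was low, at 44.3% of its control, while the LM2 knockdown held 99.2%. The average difference of SLC25A1 was −0.57 ± 0.31 (adjusted p = 0.300). SLC25A11, the 2-oxoglutarate/malate carrier of the malate-aspartate shuttle, was at 44.2 and 25.5 FPKM in BM1 and 26.5 and 20.1 in LM2, with both knockdowns below both controls. It shares its locus with RNF167 on the other strand. SLC25A21, the oxodicarboxylate carrier, was low, at 1.5 and 2.09 FPKM in BM1 and 0.642 and 0.50 in LM2.

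Amino acid carriers differed in both directions, none past the test. SLC25A22, a mitochondrial glutamate carrier, was at 16.5 and 24.8 FPKM in BM1 and 14.9 and 18.6 in LM2, and both knockdowns lay above both controls (0.43 ± 0.25, adjusted p = 0.330). The aspartate/glutamate carriers of the malate-aspartate shuttle were present as a pair, with SLC25A13 (citrin) at 15.98 to 18.6 FPKM and SLC25A12 (aralar) at 4.55 to 6.93. The ratio of SLC25A13 to SLC25A12 was 2.99 and 2.68 in the BM1 control and knockdown and 3.67 and 2.44 in LM2. SLC25A12 was at 6.11 and 6.93 FPKM in BM1 and 4.55 and 6.55 in LM2, and SLC25A44, a carrier of branched-chain amino acids, at 9.81 and 11.9 in BM1 and 9.03 and 11.4 in LM2. In both genes the knockdowns lay above both controls. SLC25A29, a carrier of basic amino acids, was at 15.8, 15.6 and 16.4 FPKM in the BM1 control, the BM1 knockdown and the LM2 control and at 9.08 in the LM2 knockdown, which alone was low. SLC25A15, the ornithine carrier of the urea cycle, was at 10.0 and 6.35 FPKM in BM1 and 6.02 and 4.17 in LM2. Its level was lower in the knockdown of each line, while the BM1 knockdown stayed above the LM2 control. SLC25A38, a glycine carrier needed for heme synthesis, differed little with knockdown, at 33.9 and 34.3 in BM1 and 22.1 and 24.9 in LM2. SLC25A20, the acylcarnitine carrier of fatty acid oxidation, was at 5.81 and 6.69 FPKM in BM1 and 4.62 and 4.77 in LM2.

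Carriers of cofactors, nucleotides and glutathione held 2 of the 4 members that were at least 2-fold higher in the BM1 knockdown. SLC25A32, a carrier of folate and FAD (chr8:104410863-104427417), stood at 12.6 FPKM in control and 28.1 in knockdown cells of BM1, and at 16.5 and 20.0 in those of LM2. Both knockdowns were above both controls, at 2.22 and 1.21 times the control level. The average difference was 0.68 ± 0.29 (adjusted p = 0.186) and 0.44 without the BM1 knockdown library, and the gene overlaps DCAF13 on the other strand. SLC25A36, a pyrimidine nucleotide carrier (chr3:140660672-140698775), stood at 8.70 FPKM in control and 21.2 in knockdown cells of BM1, and at 15.4 and 17.1 in those of LM2. The BM1 control was the low library, and the groups did not overlap. The knockdown held 2.43 and 1.12 times the control level, with an average of 0.67 ± 0.31 (adjusted p = 0.219), which was 0.29 without the BM1 control library and 1.05 without the LM2 control. SLC25A33, the other pyrimidine nucleotide carrier, was at 6.62 and 5.81 FPKM in BM1 and 3.40 and 4.17 in LM2, so the ratio of SLC25A36 to SLC25A33 was 1.31 in the BM1 control and 3.65 to 4.52 in the other 3 libraries.

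SLC25A39, the carrier of glutathione, stood at 84.9 FPKM in control and 67.8 in knockdown cells of BM1, and at 69.1 and 52.5 in those of LM2. Both controls were above both knockdowns, with the BM1 knockdown and the LM2 control close together (−0.35 ± 0.25, adjusted p = 0.417). Its paralog SLC25A40 was at 2.82 to 4.22 FPKM, and the ratio of SLC25A39 to SLC25A40 was 30.1 in the BM1 control and 14.8 to 16.7 in the other libraries. SLC25A26, the S-adenosylmethionine carrier, was at 10.5 and 12.9 in BM1 and 7.02 and 8.51 in LM2, and SLC25A51, which carries NAD+, ranged from 7.01 to 9.24.

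The mitoferrins bring iron to the matrix for heme and iron-sulfur clusters. SLC25A28 (mitoferrin-2) was at 25.7 and 14.8 FPKM in BM1 and 17.3 and 13.3 in LM2, with both knockdowns below both controls (−0.55 ± 0.26, adjusted p = 0.229). SLC25A37 (mitoferrin-1) ranged from 13.6 to 17.2 with overlapping groups. Among the relatives of the uncoupling proteins, SLC25A14 was at 7.72 and 4.98 in BM1 and 7.16 and 6.76 in LM2, without overlap. SLC25A30 (chr13:45967451-45992590) was at 6.76 and 5.73 in BM1 and 5.34 and 2.24 in LM2, where the LM2 knockdown alone was low, at 41.9% of its control.

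SLC25A46, the member of the outer membrane, which takes part in mitochondrial fusion and lipid transfer, is at chr5:110073837-110100861. It stood at 9.55 FPKM in control and 21.3 in knockdown cells of BM1, and at 16.4 and 20.1 in those of LM2. Both knockdowns were above both controls, at 2.23 and 1.23 times the control level. The average difference of 0.68 ± 0.28 was the highest of the 38 carriers and did not pass the test (adjusted p = 0.182), and the gene overlaps TMEM232 on the other strand. The average was 0.32 without the BM1 control library and 1.04 without the LM2 control. Members with a less settled substrate were SLC25A43 (3.49 to 7.54 FPKM), SLC25A35 (2.85 to 8.47) and SLC25A53 (2.38 to 3.85), of which SLC25A53 was at 2.38 and 3.41 in BM1 and 3.09 and 3.85 in LM2, with both knockdowns above both controls.

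The base composition and the length of the transcripts went with the differences. Across the 38 carriers the BM1 difference had a Pearson r of −0.68 with transcript GC content (Spearman rho −0.68), against −0.38 across 13723 genes with a value. In LM2 the same r was −0.24 for the carriers and −0.16 for all genes. With the GC content at the third codon position it was −0.59 in BM1 and −0.29 in LM2. With log2 transcript length the r was 0.51 for the carriers and 0.20 for all genes in BM1, and 0.15 and 0.07 in LM2. These are descriptions across genes that share the same libraries, and genes are not independent replicates. Of 13 carriers with under 45% GC, 12 were higher in the BM1 knockdown (92.3%, against 75.3% of all genes of that band). Their median was 0.45, against 0.43 over all genes of that band. Of 12 carriers with over 55% GC, 10 were lower (83.3%, against 67.4% of all genes of that band). Their median was −0.57, against −0.25. In LM2 7 of the 13 and 3 of the 12 were higher (53.8% and 25%, against 56.6% and 37.4% of all genes). SLC25A36, SLC25A24, SLC25A32 and SLC25A46, the 4 past 2-fold upward in BM1, had 37.4%, 38.7%, 40.2% and 41.5% GC. SLC25A1 and SLC25A10, the pair past 2-fold downward, had 65.6% and 65.4%. SLC25A22 was an exception, at 63.7% GC and higher in the knockdown of both lines.

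**Figure D3:**
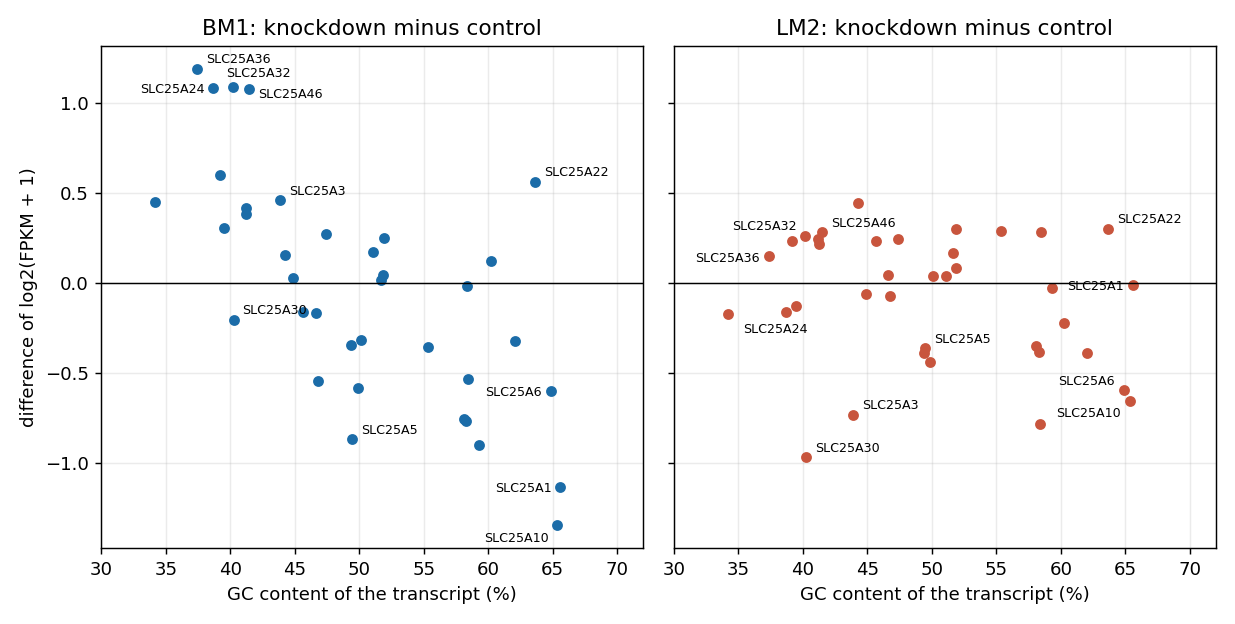
Difference of log2(FPKM + 1), knockdown minus control, in BM1 (left) and LM2 (right) against the GC content of the longest coding GENCODE 29 transcript, for 37 of the 38 carriers. The BM1 points fall from upper left to lower right (r −0.68 over all 38), and the LM2 points are flatter (r −0.24).

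When the trend with GC content and transcript length over all genes was removed from each library, an alternative chosen after seeing the data, 1 of the 38 carriers remained past 2-fold in BM1 and not the 6 found before. This was SLC25A10, at −1.14. SLC25A1 was then at −0.93, SLC25A46 at 0.74, SLC25A32 at 0.63, SLC25A36 at 0.49 and SLC25A24 at 0.46. The SD across carriers in BM1 went from 0.63 to 0.45, and an r of −0.31 with GC content remained. In LM2, SLC25A30 was past 2-fold after the removal, at −1.05, and SLC25A1 went from −0.01 to 0.16. Averaged over the lines, SLC25A30 was then the lowest carrier at −0.88, with SLC25A10 at −0.81, and SLC25A22 was the highest at 0.62, with SLC25A46 at 0.48, SLC25A32 at 0.41 and SLC25A36 at 0.27. The trends with GC content and length were removed together, so their parts were not separated. Whether these relations came from the libraries or from the cells was not tested.

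The comparison of LM2 with BM1 asked how the carriers differed between the lung and bone derivatives. No carrier passed the test over both treatments (0 of 38 in limma), against 4.35% of all genes (2.31% higher and 2.04% lower in LM2). At an unadjusted p of 0.05 there were 6 carriers (SLC25A15, SLC25A21, SLC25A24, SLC25A30, SLC25A33 and SLC25A35), which is 15.8% against 22.4% of all genes. Both LM2 libraries were above both BM1 libraries in 5 carriers (SLC25A4, SLC25A24, SLC25A25, SLC25A43 and SLC25A51), which is 13.2% against 19.4% of all genes. Both were below in 9 (SLC25A13, SLC25A15, SLC25A20, SLC25A21, SLC25A26, SLC25A30, SLC25A33, SLC25A35 and SLC25A38), which is 23.7% against 21.6%. The median difference, LM2 minus BM1, was −0.16 for the 38 and −0.01 for all genes. Its Pearson r with transcript GC content was −0.48 for the carriers between the controls (all genes −0.24). Between the knockdowns it was 0.17 (all genes 0.03). With the GC and length trend removed the lowest averages were SLC25A21 at −0.92, SLC25A30 at −0.80 and SLC25A35 at −0.73. SLC25A24 was then the highest at 0.92. The 7 amino acid carriers tested were all lower in LM2 on average, from −0.58 (SLC25A15) to −0.08 (SLC25A44), none past the test, and this group was picked out after its values were seen. Of all 38 carriers 22 were lower in LM2 on average, as were 7056 of all 13928 genes. Other groups were also uneven, with 7 of the 9 carriers of ADP/ATP and adenine nucleotides higher in LM2. All 7 amino acid carriers stayed below 0 under each scaling and pseudocount tried. Dropping the filter cannot change the average of a gene, so it was no check of them. The amino acid carrier SLC25A18, below the filter, was not counted. It was at 0.194 and 0.278 FPKM in the BM1 control and knockdown and 0.262 and 0.847 in LM2. Between the control libraries 6 of the 7 were lower in LM2, and between the knockdown libraries all 7 were. The fits without a library had no term for treatment, so they set libraries of unlike treatment against each other. In them 2 turned positive without the BM1 knockdown library (SLC25A22 and SLC25A44). A further 2 did so without the LM2 control (SLC25A12 and SLC25A44) and 1 without the LM2 knockdown (SLC25A29). These changes of sign thus cannot be laid to the missing library alone.

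SLC25A24 had the highest average difference of the 38, 1.09 ± 0.33 (adjusted p = 0.0990), which was 0.54 without the BM1 control library and 1.63 without the BM1 knockdown. The LM2 control held 3.47 times the level of the BM1 control, and the LM2 knockdown 1.39 times that of the BM1 knockdown. It was the only carrier at least 2-fold higher in LM2 between the controls, where 6.98% of all genes were. SLC25A43 was next, at 4.70 and 3.49 FPKM in the BM1 control and knockdown and 7.54 and 5.53 in LM2. Its LM2 levels were 1.60 and 1.59 times the BM1 levels under the control and the hnRNPM shRNA, and the average was 0.56 ± 0.25 (adjusted p = 0.230) and 0.37 without the LM2 control library.

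SLC25A35 (chr17:8191081-8198661) was the only carrier at least 2-fold lower in LM2 between the controls, where 5.26% of all genes were. It stood at 8.47 FPKM in control and 4.07 in knockdown cells of BM1, and at 2.92 and 2.85 in those of LM2. The BM1 control was the high library, and both LM2 libraries were below both BM1 libraries. The average difference was −0.83 ± 0.29 (adjusted p = 0.140), −0.38 without the BM1 control library and −1.28 without the BM1 knockdown, and the gene overlaps RANGRF on the other strand. SLC25A21 (chr14:37147126-37642071), with the levels given above, had an average of −0.82 ± 0.26 (adjusted p = 0.111), and its LM2 levels were 42.7% and 23.9% of the BM1 levels. SLC25A21 overlaps PAX9 and SLC25A21-AS1 on the other strand. SLC25A30 had an average of −0.67 ± 0.28 (adjusted p = 0.204), which was −0.19 without the LM2 knockdown library and −1.16 without the LM2 control, and its LM2 level was 79.0% of the BM1 level between the controls and 39.1% between the knockdowns.

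Between the knockdown libraries 1 carrier, SLC25A1, was at least 2-fold higher in LM2 (2.63%, against 4.41% of all genes), and 2, SLC25A21 and SLC25A30, were at least 2-fold lower (5.26%, against 4.63%). SLC25A1 held 2.15 times the BM1 level in the LM2 knockdown and 0.958 times in the LM2 control. Its average of 0.50 ± 0.31 (adjusted p = 0.391) rested on single libraries, at −0.066 without the BM1 knockdown and 1.07 without the BM1 control. The differences between lines and those between treatments use the same 4 libraries, so a low or high value in a single library appears in both.

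**Figure D4:**
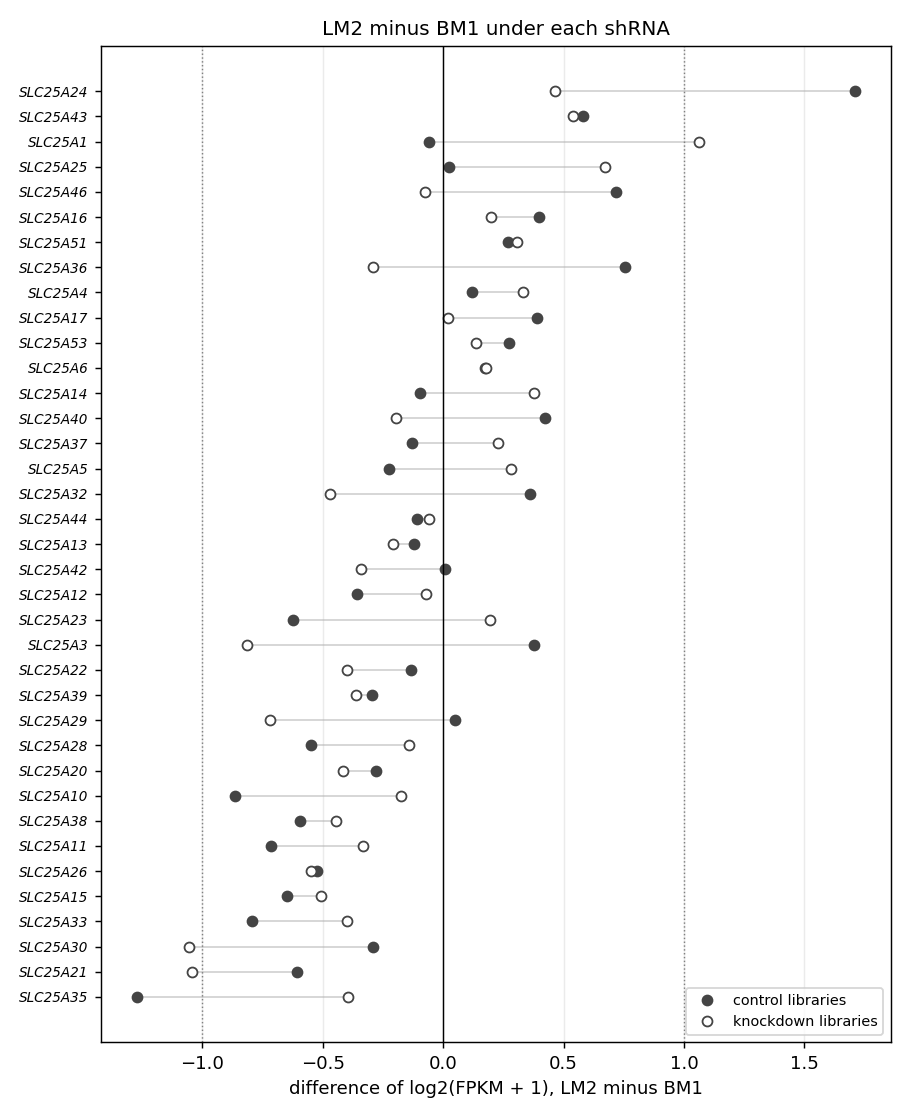
Difference of log2(FPKM + 1), LM2 minus BM1, for 37 of the 38 carriers, between the control libraries (filled) and between the knockdown libraries (open), ordered by the average. Dotted lines mark 2-fold, passed by SLC25A24 (upward) and SLC25A35 (downward) between the controls and by SLC25A1 (upward), SLC25A30 and SLC25A21 (downward) between the knockdowns.

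The 5 carriers below a mean of 1 FPKM were not tested and rested on about 3 to 91 fragments in a library. SLC25A45 was at 0.736 and 1.09 FPKM in the BM1 control and knockdown and 0.698 and 1.16 in LM2. SLC25A27, an uncoupling protein relative of the brain, was at 0.423 and 1.32 in BM1 and 0.741 and 0.164 in LM2. The glutamate carrier SLC25A18 was at 0.194 to 0.847, SLC25A52, the second NAD+ carrier, at 0.200 to 0.334, and SLC25A34 at 0.0375 to 0.140. No difference of these genes was read at this depth. Of all 43 members, 22 overlap another row of the table (5 on the same strand and 19 on the opposite strand), and the sources used here do not give whether the authors counted by strand.

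Other mitochondrial genes were read from 6 lists, whose counts of calls stand beside the shares of all genes given above (2.71% higher and 2.76% lower for knockdown, 2.31% and 2.04% for LM2). Family members under other symbols were UCP2, MTCH1 and MTCH2, and none passed the test. UCP2, which exports carbon compounds and can lower the membrane potential, was at 27.7 and 16.6 FPKM in the BM1 control and knockdown and 43.1 and 17.5 in LM2. Both knockdowns were below both controls (−0.98 ± 0.27, adjusted p = 0.0694). MTCH1, an outer membrane insertase, was at 471 and 296 in BM1 and 218 and 188 in LM2 (−0.44 ± 0.26, adjusted p = 0.333). Of 16 genes of the import machinery that inserts the carriers, 1 was higher in the knockdowns and none lower (median 0.00). This was TOMM6, a small subunit of the outer membrane translocase, at 28.8 and 102 FPKM in BM1 and 80.1 and 214 in LM2 (1.60 ± 0.26, adjusted p = 0.0158). TOMM6 was also higher in LM2 (1.25 ± 0.26, adjusted p = 0.0347), and it overlaps PRICKLE4 on the same strand.

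Of 15 ATP synthase subunits, whose product leaves through the ADP/ATP carriers, none passed the test for knockdown (median −0.10). The largest averages were 0.54 for ATP5L (adjusted p = 0.222) and −0.44 for ATP5G2 (adjusted p = 0.334). ATP5A1, the alpha subunit, was lower in LM2, at 294 and 258 FPKM in the BM1 control and knockdown and 76.8 and 113 in LM2 (−1.56 ± 0.28, adjusted p = 0.0203), and it overlaps HAUS1 on the other strand. Of 20 other transporters of the mitochondrial membranes, 1 was lower in the knockdowns and none higher (median −0.13). This was MCU, the pore of the calcium uniporter, at 21.6 and 7.34 FPKM in BM1 and 23.3 and 6.89 in LM2 (−1.53 ± 0.25, adjusted p = 0.0168), and it overlaps a further gene on the same strand. Between the lines none of the 20 passed.

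Of 30 enzymes that work on the substrates of the carriers, 2 were higher in LM2 and none lower (median −0.27). ASS1, which joins citrulline and aspartate in the urea cycle, was at 3.63 and 8.23 FPKM in BM1 and 33.1 and 68.4 in LM2 (2.90 ± 0.25, adjusted p = 0.000788). IDH2, the isocitrate dehydrogenase of the matrix that makes NADPH, was at 7.17 and 2.94 in BM1 and 18.7 and 16.04 in LM2 (1.69 ± 0.29, adjusted p = 0.0162). Among 10 regulators of mitochondrial biogenesis none passed either test. PPARGC1A, a coactivator of mitochondrial genes, was low at 0.678 and 3.02 FPKM in BM1 and 0.638 and 1.55 in LM2 (0.95 ± 0.27, adjusted p = 0.0795), and TFB1M had −0.57 ± 0.25 (adjusted p = 0.207).

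These calls depended on the scaling and on the number of libraries. Over 13 alternatives TOMM6 and MCU kept their call for knockdown in 4 each, with adjusted p up to 0.783 and 0.656. ASS1 kept its call between the lines in 7, IDH2 and ATP5A1 in 4 each and TOMM6 in 3. Leaving out any single library left 0 genes of the whole table called for knockdown in limma, HNRNPM included (860 to 1943 genes at an unadjusted p of 0.05).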

How the data were processed

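Gene levels were measured by RNA sequencing in 4 libraries, 1 per group. The authors deposited 1 table of FPKM values, per the labels, and the submitters' processing notes name STAR 2.5.3a, Cuffdiff 2.2.1 and GRCh37, with no role or order. The sources used here do not give the program that made the FPKM values, the annotation release or the use of strand. Gene coordinates are those of the table.

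Of 20369 entries, 40 of 3 repeated gene IDs were left out. Values were analysed as log2(FPKM + 1), which understates the change of low genes. Genes whose FPKM averaged 1 or more entered limma 3.58.1 (R 4.3.3) with terms for line and treatment and 1 residual degree of freedom, tested two-sided with Benjamini-Hochberg adjustment over all 13928 genes at 0.05. The residual of a gene was pooled with a prior from all genes of 7.70 degrees of freedom, so the SEs rest mostly on that prior. The script was tested on simulated data. The smallest two-sided p of an exact permutation test over these 2 pairs is 0.5, and the interaction of line and treatment could not be tested. The cell line pairs knockdown and control, and the difference between the lines in the controls correlated with that in the knockdowns (Pearson r 0.545 across genes).

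Depth was inferred from 1624 low genes with a single transcript, in which 36.1% to 44.0% of the products of FPKM and length (those up to 10 steps) were whole multiples of a step, taken as 1 fragment, to within 0.02 (2.34% to 3.09% for other steps). Most values were not whole, so no count test was run. Transcript and coding sequences came from GENCODE 29 (GRCh38), by gene ID.

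The carriers and the lists were chosen with earlier results of these data known. Named carriers were those past 2-fold in any pair of libraries, the 3 highest and 3 lowest averages of each contrast, the 5 most abundant and all below the filter, and from each list those that passed or else the 2 with the largest average. The others are described by role. Alternatives were pseudocounts of 0.1 and 0.5, no filter, size factors, quantile normalization, rescaling without mitochondrial-genome genes, an intensity trend, no block, each library left out, a 1.5-fold rule and, added after seeing the data, a correction of each library for transcript GC content and length (splines with 5 degrees of freedom). The GC bands and the signature sequences were also chosen after seeing the data. The fits with no block and those without a library held only the term tested, line or treatment. Some genes that entered the fits and counts are not reported here by name or drawn.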

Additional observations from a re-analysis of the deposited data

Results flagged for a closer look

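Of 14 named carriers, 8 had differences of opposite sign, either between the lines (knockdown minus control) or between the treatments (LM2 minus BM1). Each rests on 1 library per group, and whether the knockdown difference differed between the lines was not tested. The values below are the knockdown difference in LM2 minus that in BM1, on the log2(FPKM + 1) scale.

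Opposite between the lines were SLC25A3, SLC25A21 and SLC25A24. For the phosphate carrier SLC25A3 the value was −1.19 (0.46 in BM1 and −0.73 in LM2), and its difference between the lines also changed sign with treatment. For SLC25A24, the calcium-regulated ATP-Mg/phosphate carrier, it was −1.25 (1.09 and −0.16). For SLC25A21, the oxodicarboxylate carrier, it was −0.43 (0.31 and −0.13), at levels between 0.50 and 2.09 FPKM.

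In SLC25A1, SLC25A5, SLC25A32, SLC25A36 and SLC25A46 the knockdown difference had the same sign in both lines, but LM2 minus BM1 changed sign between the controls and the knockdowns. The value was 1.12 for the citrate carrier SLC25A1 (−0.06 between the controls and 1.06 between the knockdowns). For the ADP/ATP carrier SLC25A5 it was 0.51 (−0.23 and 0.28). The folate and FAD carrier SLC25A32 had −0.83 (0.36 and −0.47). For SLC25A36, which carries pyrimidine nucleotides, it was −1.04 (0.75 and −0.29). SLC25A46 of the outer membrane had −0.79 (0.72 and −0.08).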

How the results depend on the processing

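The count of carriers called was 0 in both contrasts under all 13 alternatives, among them the fit with no replicate block and the fits without a library each (lowest 0, highest 0). For all genes, 762 were called for knockdown and 606 between the lines. These became 27 and 216 with a pseudocount of 0.1, 0 and 0 without a filter on low values, 0 and 104 with quantile normalization, 16 and 154 after rescaling without mitochondrial-genome genes, 339 and 420 with the GC and length trend removed, and 0 and 11 with no replicate block. Without a library each they were 0 and 6 to 28. The unadjusted counts for knockdown where none was called were 860 to 3735.

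In BM1 6 carriers were past 2-fold, 13 at 1.5-fold and 1 with the GC and length trend removed. In LM2 the count went from 0 to 5 at 1.5-fold and to 1 with a pseudocount of 0.1, a pseudocount of 0.5 or the trend removed. Between the controls it went from 2 to 11 at 1.5-fold, and between the knockdowns from 3 to 6 at 1.5-fold and to 1 with quantile normalization or the trend removed. Of 156 values for the averages of named carriers, 155 kept their direction. This count is padded, since no filter, an intensity trend and no block cannot change an average in this balanced design. No named carrier was called under any setting, which says nothing about stability, since the fits without a library called no gene for knockdown. Of the 12 averages, 9 moved by over 1.5 times in the fits without a single library, with the values given in the report. SLC25A5, SLC25A6 and SLC25A21 did not. These fits had no term for the other factor, so they do not give the paired average without a library. Within pairs, the knockdown difference of SLC25A5 was −0.87 in BM1 and −0.36 in LM2, and that of SLC25A6 −0.60 in each line. For SLC25A21, LM2 minus BM1 was −0.61 between the controls and −1.04 between the knockdowns. The average of SLC25A1, LM2 minus BM1, was 0.50 and ran from −0.066 (without the BM1 knockdown library, adjusted p = 0.941) to 1.07 (without the BM1 control library). Of 77 differences of named carriers between 2 libraries, 67 stayed past 2-fold and 10 did not. Those with no filter were among the 67 by construction. Rescaling without mitochondrial-genome genes shifted the BM1 median of all genes by 0.10. The causes of these changes were not tested.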
